A study of Mus musculus with 6 samples.

Results

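The complement system genes are 33 genes that encode the components, pattern-recognition lectins, regulators and receptors of complement. They were chosen by gene symbol from a given list, and all 33 were found among the 47643 genes of the table. Total RNA of MYC-driven mouse liver tumors was sequenced in 6 libraries of FVB/N mice. In 3 libraries the mice had received GSK3326595 for 2 weeks, at 50 mg/kg/day, and in 3 libraries they had received vehicle. GSK3326595 blocks PRMT5, an enzyme that adds methyl groups to arginines of proteins. All 6 carried LAP-tTA and tetO-MYC, in which a liver promoter drives a tetracycline-controlled activator that switches on MYC when doxycycline is absent. Doxycycline was given at 100 mg/L in the drinking water until 4 weeks of age, and MYC had been on for 8 weeks when treatment with the inhibitor or vehicle began. The model therefore switches on a single oncogene in hepatocytes, and both groups carry it. The labels do not say that the 3 libraries of a group came from separate animals. The spread behind each p-value is therefore that of these libraries and may not be that between animals.

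Complement is a cascade of plasma proteins that tags microbes and damaged cells, recruits leukocytes and opens pores in membranes. The classical, lectin and alternative arms converge on cleavage of C3, and the terminal components then assemble the membrane attack complex. The liver is the main source of most of the circulating components, because hepatocytes make them. Tissue macrophages make C1q, and macrophages and other myeloid cells make properdin and carry the receptors for the cleavage fragments C3a and C5a. The genes were accordingly divided by known source into 21 hepatocyte-made members, 7 macrophage-made members and 5 members of several or other sources.

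The libraries held 30234273, 32427490 and 25814339 expected counts in GSK3326595 replicates 1 to 3, against 33621083, 31480006 and 32188866 in vehicle replicates 1 to 3. GSK3326595 replicate 2 stood apart: it lay at 103.1 on the axis of greatest variance (38.1% of the total), and the other 5 libraries lay between -50.2 and 9.4. Alb, the albumin gene, was abundant in every library. It had 10906, 11714 and 3157 CPM in GSK3326595 libraries, against 9249, 11944 and 4985 CPM in vehicle libraries, where CPM is the gene's count scaled to a common library size and corrected for library composition. The 10 hepatocyte markers summed to 28173, 26408 and 8017 CPM in GSK3326595 libraries, against 34833, 42595 and 14982 CPM in vehicle libraries, and 9 of the 10 were lowest in GSK3326595 replicate 3. The 14 markers of Kupffer cells and other macrophages summed to 1631, 628 and 649 CPM in GSK3326595 libraries, against 637, 833 and 832 CPM in vehicle libraries. Cd5l and Slc40a1 gave 611 and 513 of the 1631 CPM in GSK3326595 replicate 1. Of the 14 markers, 9 were highest and 4 were lowest in that library. In such bulk tissue, fewer cells of a type and less RNA per cell cannot be told apart. From here on, values are listed in the order of replicates 1 to 3 of each group.

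No complement gene passed the test between the groups. Of the 33 members 32 passed the filter on low counts, and each of the 32 had at least 0.358 CPM in every library. In edgeR's quasi-likelihood test with Benjamini-Hochberg adjustment over 17012 genes, 0 members had an adjusted p under 0.05, against a background of 0% of all genes. The smallest adjusted p of a member was 0.522 in edgeR. DESeq2 called 1.69% of genes and 0 of the 30 members to which it gave an adjusted p, with a smallest value of 0.151 for C9; it gave none for C8g and Mbl1. At an unadjusted p under 0.05 in edgeR, 3 members had higher values in GSK3326595 libraries, C9, C4bp and Mbl1, where 5.45% of all genes did, and 0 had lower values, where 3.81% of all genes did. DESeq2 gave 4 members an unadjusted p under 0.05 and limma-voom gave 0. The count of 3 in edgeR was 0 without vehicle replicate 1 or vehicle replicate 2, 5 without GSK3326595 replicate 1 and 9 without GSK3326595 replicate 3. Leaving out GSK3326595 replicate 2 gave 3 other members, C1qb with higher values and C3 and Cd55 with lower ones.

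The fitted log2 difference, GSK3326595 minus vehicle, was above 0 for 24 members and below 0 for 8, where it was above 0 for 53.1% of all genes. The median over the 32 members was 0.45, and over all genes 0.03. It was 0.08 without GSK3326595 replicate 1, 0.14 without GSK3326595 replicate 2 and 0.75 without GSK3326595 replicate 3. The ranges of the GSK3326595 and vehicle libraries overlapped for all 32 members, while 6.72% of all genes were higher and 7.66% lower without overlap. The 95% interval of the difference held 0 for 29 members and lay above 0 for 3. These intervals are wide: for C3 the interval ran from -2.32 to 0.47, so neither a several-fold lower level nor a slightly higher one was outside it.

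**Figure D1:**
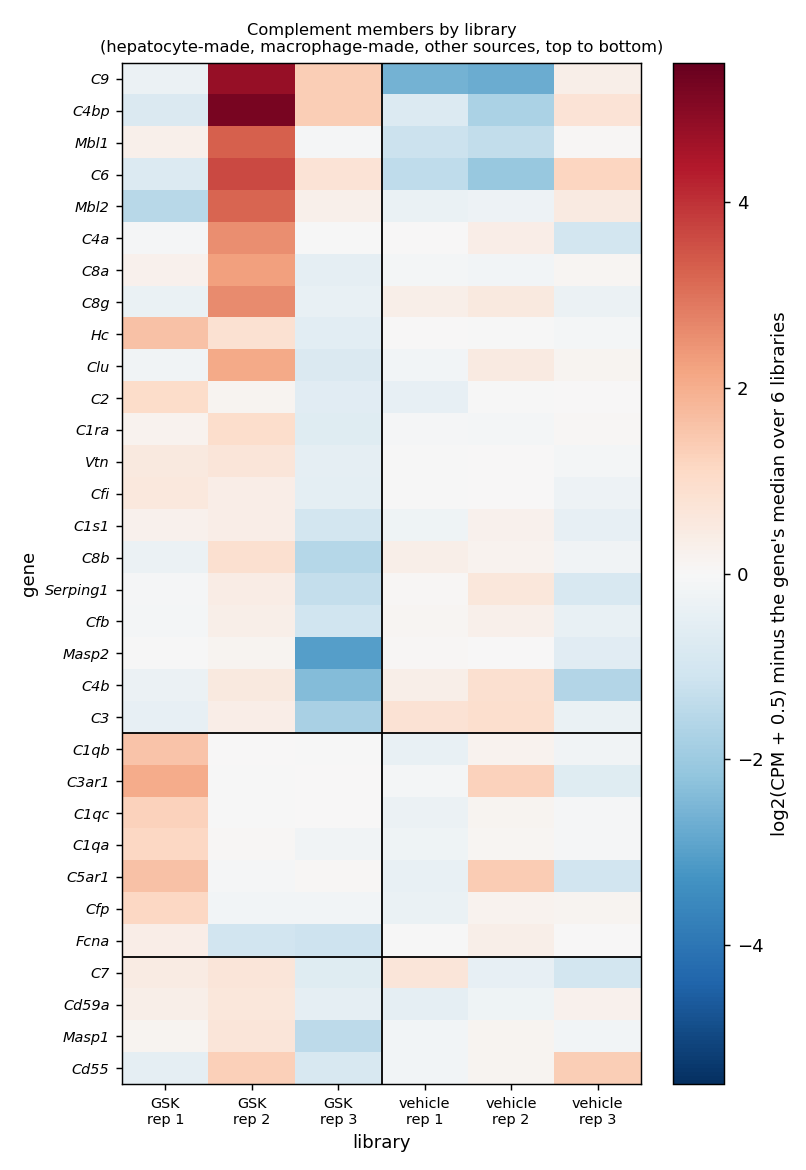
Level of the 32 complement genes that passed the filter in each library, as log2(CPM + 0.5) minus the gene's median over the 6 libraries; genes run down the page by source and libraries across it, GSK3326595 on the left. The darkest red cells, C9 and C4bp, are in GSK3326595 replicate 2, and all 7 macrophage-made genes are highest in GSK3326595 replicate 1.

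The 2 sources of complement differed in which library stood out. Of the 21 hepatocyte-made members, 15 were highest in GSK3326595 replicate 2, where 22% of all genes were, and 15 were lowest in GSK3326595 replicate 3, where 20.6% of all genes were. All 7 macrophage-made members were highest in GSK3326595 replicate 1, where 21.1% of all genes were. The sources were assigned from what is known of these genes, and the cell of origin was not measured in this bulk tissue. The members of 1 source are not independent of each other, since all were read from the same libraries. The hepatocyte-made members had a median log2 difference of 0.46, with 15 above 0 and 6 below. Without GSK3326595 replicate 2 that median was -0.08, with 10 of 21 above 0. The macrophage-made members had a median of 0.52, with 6 above 0 and 1 below. Without GSK3326595 replicate 1 it was -0.16, with 2 of 7 above 0. Each source's median therefore changed sign when 1 GSK3326595 library was left out.

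Summed over all 33 members, complement made up 0.798%, 1.18% and 0.335% of the counts in GSK3326595 libraries, against 1.05%, 1.21% and 0.628% in vehicle libraries. Hepatocyte-made members summed to 6862, 11491 and 2775 CPM in GSK3326595 libraries, against 10926, 12537 and 5645 CPM in vehicle libraries. Macrophage-made members summed to 872, 343 and 324 CPM in GSK3326595 libraries, against 299, 427 and 345 CPM in vehicle libraries. The groups overlapped in all 3 sums, and most of the complement RNA came from the hepatocyte-made members.

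**Figure D2:**
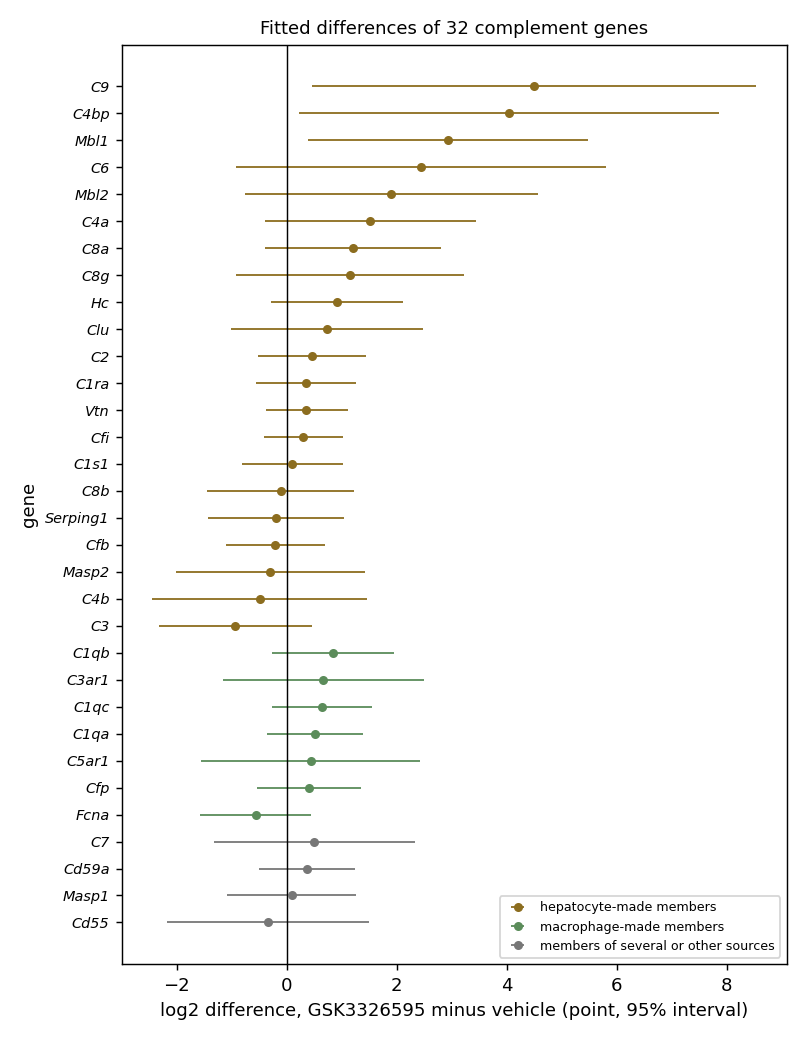
Fitted log2 difference, GSK3326595 minus vehicle, of 32 complement genes in edgeR (point) with its 95% interval (line), 3 libraries a group, coloured by source. The intervals of C9, C4bp and Mbl1 lie above 0, and the other 29 hold 0.

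C3 is the protein on which the classical, lectin and alternative arms converge, and its RNA was the most abundant of the members. It had 3242, 5645 and 1269 CPM in GSK3326595 libraries, against 7543, 8364 and 3398 CPM in vehicle libraries. The GSK3326595 mean was 3385 ± 2192 CPM and the vehicle mean 6435 ± 2662 CPM (SD, n = 3 each). GSK3326595 replicate 2 lay above vehicle replicate 3, so the groups overlapped, and the lowest library of each group was replicate 3. The log2 difference was -0.93 ± 0.59 (SE) with an adjusted p of 0.67 in edgeR. It was the lowest of the 32 members, and it stayed below 0 when any 1 library was left out, between -1.48 and -0.52.

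C3 took a smaller part of the complement RNA in the GSK3326595 libraries. It made up 41.7%, 47.4% and 40.7% of the members' counts there, against 67%, 64.3% and 56.3% in vehicle libraries. These shares did not overlap, but they were chosen after the values had been seen. No such share was computed for any other single member. Relative to Alb, C3 stood at 0.297, 0.482 and 0.402 in GSK3326595 libraries, against 0.816, 0.7 and 0.682 in vehicle libraries (means 0.394 ± 0.0926 and 0.733 ± 0.0726, SD, n = 3 each). All 3 GSK3326595 libraries lay below all 3 vehicle libraries in this ratio. Of the 21 hepatocyte-made members, C3 was the 1 whose ratio to Alb was lower without overlap, where 1.66% of all genes were. Without overlap 0 were higher, where 2.93% of all genes were. The lower ratio was not particular to C3. Among the other hepatocyte markers, Apoh, Apoa1 and Ahsg were also lower relative to Alb without overlap, and the rest overlapped. A set of 14 ratios, C3 to Alb among them, was chosen after the values had been seen, and 3 of the 14 did not overlap between groups. Also looked at, outside the 14, were the share of C3 among the members and further ratios of members and markers to Alb or Csf1r. With 3 libraries against 3, the smallest 2-sided exact permutation p is 0.1, so no such ratio could pass 0.05 in that test, and no other test of the ratios was run. A ratio shows that the genes differed unequally and not which of them did.

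The C3 promoter window holds the letters TTGCNNAA, a pattern bound by C/EBP factors, which drive acute phase genes in the liver. RefSeq promoter windows (GRCm38.p6, 250 bases before to 50 after the start) were at hand for 24 of the 33 members. Here and below, a member counts if any of its windows holds the letters, while the background counts single windows. TTGCNNAA was searched on both strands. It occurred in the windows of 4 of the 24, C3, C9, C1ra and C1s1, or 16.7%, where 10.8% of 32851 windows held it. The shares of these 4 and of all windows are close, and the difference was not tested. The C3 window, chr17:57228087-57228386 on the minus strand, is printed 5′ to 3′ as the abundant member of this group, with the match, whose first base is at -45 from the start, in capitals.
C3: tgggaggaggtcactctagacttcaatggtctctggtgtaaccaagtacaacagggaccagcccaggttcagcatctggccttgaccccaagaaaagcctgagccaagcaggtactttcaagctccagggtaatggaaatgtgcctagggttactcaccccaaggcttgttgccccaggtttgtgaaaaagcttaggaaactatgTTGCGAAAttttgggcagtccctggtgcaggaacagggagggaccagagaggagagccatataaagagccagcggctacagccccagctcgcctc
The match is a description of these letters and not a site shown to be bound.

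In the classical arm, antigen-bound antibody is recognised by C1q, and the proteases C1r and C1s then cleave C4 and C2. Of the 8 members of this arm 7 had a log2 difference above 0 and 1 below, with a median of 0.49, and none passed the test. C4b, the gene of the main C4 protein of mouse plasma, had 743, 1322 and 173 CPM in GSK3326595 libraries, against 1129, 1694 and 303 CPM in vehicle libraries. C4a, which encodes the sex-limited protein, a relative of C4 under androgen control in many strains, had 15.1, 97.2 and 15.7 CPM in GSK3326595 libraries, against 16.2, 20.6 and 7.7 CPM in vehicle libraries. Both pairs of groups overlapped. For C4b the lowest library of each group was replicate 3, and for C4a GSK3326595 replicate 2 alone stood high, at 4.71 times the next library.

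The log2 difference was -0.48 ± 0.82 for C4b and 1.52 ± 0.81 for C4a, with adjusted p-values of 0.912 and 0.612 in edgeR. Without GSK3326595 replicate 2 it was 0.10 for C4a. These 2 genes lie 65.2 kb apart on chromosome 17 (mm10), C4b at 34728380 to 34743882 and C4a at 34809092 to 34823464, and their sequences are nearly identical. The annotation types C4a as a processed transcript, and the expected counts divide shared reads between the 2 genes by estimate, so their separate values are uncertain. Added together they had 758, 1419 and 189 CPM in GSK3326595 libraries, against 1145, 1715 and 311 CPM in vehicle libraries, with a log2 difference of -0.42 ± 0.82 and an adjusted p of 0.927 in edgeR. The sum follows C4b, the more abundant of the pair.

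The genes of the classical proteases had small fitted differences. C1ra and C1s1, whose proteins are the C1r and C1s proteases, had log2 differences of 0.36 ± 0.38 and 0.10 ± 0.39. C2, the catalytic part of the classical C3 convertase, had 0.46 ± 0.41, and was highest in GSK3326595 replicate 1 at 70.9 CPM. Adjusted p-values of the 3 were between 0.772 and 0.965 in edgeR. C2 lies 0.1 kb from Cfb on chromosome 17. Cfb encodes factor B, which has the same part in the alternative arm as C2 in the classical one. Cfb had 352, 475 and 179 CPM in GSK3326595 libraries, against 410, 464 and 287 CPM in vehicle libraries, with overlapping groups and a log2 difference of -0.21 ± 0.38.

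Cfd encodes factor D, or adipsin, the protease that cleaves factor B, and fat cells are its main source. It was the member that did not pass the filter. It had 0, 0 and 0 expected counts in GSK3326595 libraries, against 1, 0 and 1 in vehicle libraries. A count of 0 allows up to 3 counts, or 0.0967, 0.093 and 0.108 CPM in the GSK3326595 libraries, and covers counting error only. Cfd was not detectable as different at this depth. Of 6 fat cell markers, Adipoq, Plin1, Lep and Retn did not pass the filter either, and Fabp4 and Cidec did. Fabp4, which macrophages and endothelium also express, had 58.8, 29.9 and 26 CPM in GSK3326595 libraries, against 20.2, 38.2 and 17.3 CPM in vehicle libraries. Cidec was between 0.516 and 1.77 CPM in all 6 libraries.

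The terminal components, from C5 to C9, build the membrane attack complex. Of the 7 genes 6 had a log2 difference above 0 and 1 below, with a median of 1.15, and none passed the test. Without GSK3326595 replicate 2 the median was 0.20, with 5 of 7 above 0. C9, whose copies line the pore, had 5.25, 195 and 17.8 CPM in GSK3326595 libraries, against 0.669, 0.578 and 8.29 CPM in vehicle libraries. GSK3326595 replicate 2 was at 10.9 times the next library, and vehicle replicate 3 lay between the other GSK3326595 libraries. The fitted log2 difference was 4.50 ± 1.69, with an interval from 0.47 to 8.54, an unadjusted p of 0.0336 and an adjusted p of 0.522 in edgeR, and it was 1.92 without GSK3326595 replicate 2.

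C6, which joins the complex after C5b, had 3.16, 77 and 10.1 CPM in GSK3326595 libraries, against 1.85, 0.952 and 13.7 CPM in vehicle libraries. GSK3326595 replicate 2 was at 5.62 times the next library, which was vehicle replicate 3. Its log2 difference was 2.45 ± 1.41 with an adjusted p of 0.641 in edgeR, and 0.33 without GSK3326595 replicate 2. C7, the next component, was the least abundant per length of the members that passed the filter. It had 1.87, 2.23 and 0.577 CPM in GSK3326595 libraries, against 2.2, 0.748 and 0.358 CPM in vehicle libraries. C6 and C7 lie 173.8 kb apart on chromosome 15, and C9 lies 1381.6 kb beyond C7. C7, which several cell types make, did not share the high value of C6 and C9 in GSK3326595 replicate 2.

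C8 is made of 3 chains from 3 genes. C8a had 69.3, 280 and 41.4 CPM in GSK3326595 libraries, against 53.7, 53 and 62.9 CPM in vehicle libraries. C8g had 5.9, 49.2 and 5.77 CPM in GSK3326595 libraries, against 9.85, 11.4 and 6.18 CPM in vehicle libraries. C8b had 73.7, 172 and 30.8 CPM in GSK3326595 libraries, against 114, 104 and 81.1 CPM in vehicle libraries. In each of the 3 genes GSK3326595 replicate 2 was the highest library and GSK3326595 replicate 3 the lowest. Log2 differences were 1.20 ± 0.67 for C8a, 1.15 ± 0.87 for C8g and -0.11 ± 0.56 for C8b, with adjusted p-values of 0.634, 0.728 and 0.975 in edgeR. Without GSK3326595 replicate 2 they were 0.01, -0.60 and -0.89.

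The alpha and beta chains of C8 did not keep the same proportion. C8a and C8b are neighbours, 11.1 kb apart on chromosome 4, and the ratio of C8a to C8b was 0.941, 1.63 and 1.34 in GSK3326595 libraries, against 0.473, 0.512 and 0.775 in vehicle libraries. All 3 GSK3326595 libraries were above all 3 vehicle libraries (means 1.3 ± 0.345 and 0.587 ± 0.165, SD, n = 3 each). This is 1 of the 3 ratios without overlap among the 14 chosen after the values had been seen. No share over other pairs of genes was computed. The libraries apart from GSK3326595 replicate 2 show the same order in the ratio of C8a to C8b.

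Hc encodes C5, whose cleavage gives the inflammatory fragment C5a and starts the membrane attack complex. FVB/N mice are known to carry an Hc allele that makes no functional C5, so its RNA here is that of a gene whose protein is lacking in this strain. The allele was not read here. Hc had 317, 183 and 67.6 CPM in GSK3326595 libraries, against 105, 100 and 95.4 CPM in vehicle libraries. The 3 vehicle libraries lay close together, 2 GSK3326595 libraries lay above them and GSK3326595 replicate 3 lay below them. The fitted difference was 0.92 ± 0.50 on the log2 scale with an adjusted p of 0.625 in edgeR. Without GSK3326595 replicate 3 it was 1.34, with an adjusted p of 0.281, and without GSK3326595 replicate 1 it was 0.32.

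The C9 window holds 1 match to TTGCNNAA, with its first base at -132 from the start. It is shown because C9 had the highest fitted difference of the members. The window is chr15:6445096-6445395 (GRCm38.p6, plus strand), with the match in capitals.
C9: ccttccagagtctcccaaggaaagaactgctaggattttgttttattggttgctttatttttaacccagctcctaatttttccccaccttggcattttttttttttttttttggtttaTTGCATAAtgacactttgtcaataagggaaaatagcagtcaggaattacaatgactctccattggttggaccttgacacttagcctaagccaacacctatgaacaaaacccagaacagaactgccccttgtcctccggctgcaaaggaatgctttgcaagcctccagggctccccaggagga
C4bp, the regulator whose difference came next, is shown beside it, with the letters GTTAAT in capitals. GTTAAT is a half-site of HNF1, a transcription factor of hepatocytes, and was searched on both strands (ATTAAC on the other). It was in the windows of 9 of the 24 members, C4bp, Hc, C8a, C8b, C1ra, Vtn, C7, Cd55 and Cfp, or 37.5%, where 7.1% of 32851 windows held it. This difference was not tested, and the matches are not sites shown to be bound. C7, Cd55 and Cfp are outside the hepatocyte-made members. The C4bp window is chr1:130661569-130661868 on the minus strand, and its match starts at -64.
C4bp: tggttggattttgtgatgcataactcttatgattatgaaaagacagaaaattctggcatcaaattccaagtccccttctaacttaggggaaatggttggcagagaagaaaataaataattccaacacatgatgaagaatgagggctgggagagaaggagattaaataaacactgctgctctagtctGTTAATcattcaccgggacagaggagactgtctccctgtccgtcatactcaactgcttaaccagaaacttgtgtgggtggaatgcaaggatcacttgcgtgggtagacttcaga
Members with GTTAAT included some that stood high in GSK3326595 replicate 2, as C4bp and C8a did, and some that did not, as Hc and Cfp.

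**Figure D3:**
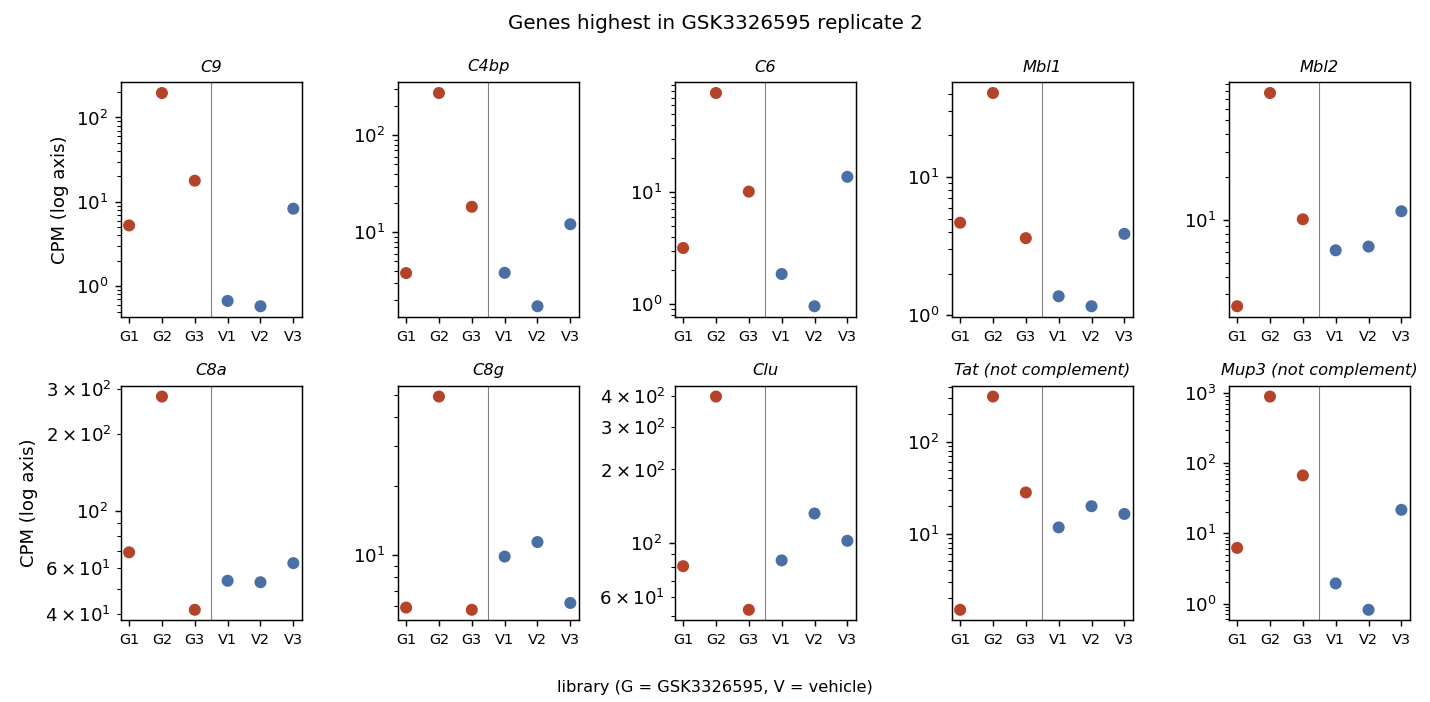
CPM (log axes) in each library of 8 hepatocyte-made complement genes and of the non-complement genes Tat and Mup3, G for GSK3326595 and V for vehicle. In each panel GSK3326595 replicate 2 is the highest library, from 398 CPM for Clu to 40.6 CPM for Mbl1 among the complement genes.

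Regulators stop complement from attacking the body's own cells. Of the 7 genes 5 had a log2 difference above 0 and 2 below, with a median of 0.36. C4bp, the alpha chain of the C4b-binding protein that breaks up the classical convertase, had 3.8, 272 and 18.3 CPM in GSK3326595 libraries, against 3.82, 1.73 and 12.1 CPM in vehicle libraries. GSK3326595 replicate 2 was at 14.9 times the next library, and GSK3326595 replicate 1 lay within the vehicle range. Its log2 difference was 4.05 ± 1.60, with an unadjusted p of 0.0407 and an adjusted p of 0.526 in edgeR, and it was 0.97 without GSK3326595 replicate 2. Clu, for clusterin, which holds back the assembly of the membrane attack complex, was also highest in GSK3326595 replicate 2, at 398 CPM and 3.01 times the next library. Its log2 difference was 0.73 ± 0.73, and -0.63 without that library.

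Vtn, for vitronectin, which binds the forming membrane attack complex, had 997, 1102 and 493 CPM in GSK3326595 libraries, against 687, 691 and 641 CPM in vehicle libraries. GSK3326595 replicates 1 and 2 lay above and replicate 3 below the vehicle libraries, as for Hc. Its log2 difference was 0.36 ± 0.31 with an adjusted p of 0.764 in edgeR. Cfi, the protease that cuts C3b and C4b, had 0.30 ± 0.30, and Serping1, the inhibitor of C1r and C1s, had -0.19 ± 0.52. The membrane-bound Cd55 and Cd59a, which protect cells from convertases and from the pore, had -0.34 ± 0.77 and 0.37 ± 0.36. Adjusted p-values of these 4 were between 0.803 and 0.952 in edgeR. The hepatocyte-made regulators were lowest in GSK3326595 replicate 3, except C4bp, which was lowest in vehicle replicate 2.

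The lectin arm starts when mannose-binding lectins or ficolins meet sugars on microbes. Mbl1 and Mbl2 encode the mannose-binding lectins of mouse plasma. Mbl1 had 4.67, 40.6 and 3.61 CPM in GSK3326595 libraries, against 1.37, 1.16 and 3.88 CPM in vehicle libraries. Mbl2 had 2.48, 77.6 and 10.1 CPM in GSK3326595 libraries, against 6.12, 6.5 and 11.5 CPM in vehicle libraries. GSK3326595 replicate 2 was the highest library for both, at 8.68 and 6.76 times the next, and the other libraries of the groups overlapped. The log2 difference was 2.93 ± 1.07 for Mbl1, with an unadjusted p of 0.0303 and an adjusted p of 0.522 in edgeR, and 1.90 ± 1.12 for Mbl2, with an adjusted p of 0.644. Without GSK3326595 replicate 2 they were 1.0 and -0.29.

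The longest run of bases shared by the windows of the 2 lectin genes has 13 bases, and 3 of 32851 windows hold it. The run was picked as the longest match between these 2 windows, so its presence in both was fixed by the search. Whether it has a role was not tested. The windows are printed because both genes were high in the same library. The Mbl1 window is chr14:41151206-41151505 and the Mbl2 window chr19:30232678-30232977, both on the plus strand of GRCm38.p6. The shared run, in capitals, begins at -23 in Mbl1 and at -57 in Mbl2.
Mbl1: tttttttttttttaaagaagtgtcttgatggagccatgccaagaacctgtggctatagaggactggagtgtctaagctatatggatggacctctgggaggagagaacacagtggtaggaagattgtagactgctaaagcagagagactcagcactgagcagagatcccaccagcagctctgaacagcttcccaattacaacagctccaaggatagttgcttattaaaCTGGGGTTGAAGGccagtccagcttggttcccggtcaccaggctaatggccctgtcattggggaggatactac
Mbl2: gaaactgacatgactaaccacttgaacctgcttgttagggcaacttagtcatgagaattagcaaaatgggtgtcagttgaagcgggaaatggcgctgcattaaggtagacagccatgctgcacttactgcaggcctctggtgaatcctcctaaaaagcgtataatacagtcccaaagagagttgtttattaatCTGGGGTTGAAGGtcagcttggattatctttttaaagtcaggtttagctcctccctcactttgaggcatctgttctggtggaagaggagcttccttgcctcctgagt
Masp1 and Masp2 encode the proteases that the lectins activate. Their log2 differences were 0.09 ± 0.49 and -0.30 ± 0.72, with adjusted p-values of 0.975 and 0.945 in edgeR. Masp2, whose protease cleaves C4 and C2, had 127, 145 and 15.2 CPM in GSK3326595 libraries, against 137, 132 and 84.4 CPM in vehicle libraries. GSK3326595 replicate 3 alone stood low.

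GSK3326595 replicate 2 was the highest library by over 2 times the next for 9 members, C4a, C6, C8a, C8g, C9, C4bp, Mbl1, Mbl2 and Clu, where 4.08% of all genes were. All 9 are hepatocyte-made, and the abundant C3, C4b, Cfb and Vtn are not among them. Of the 10 hepatocyte markers 2 were highest in GSK3326595 replicate 2, Tat and Serpina1a, while 6 were highest in vehicle replicate 2. Tat, a late hepatocyte marker that breaks down tyrosine, had 1.48, 312 and 28.1 CPM in GSK3326595 libraries, against 11.7, 19.9 and 16.4 CPM in vehicle libraries. Mup3, a major urinary protein gene, had 6.22, 894 and 67.1 CPM in GSK3326595 libraries, against 1.94, 0.816 and 21.7 CPM in vehicle libraries. Of the 12 male-biased liver genes that passed the filter, 10 were highest in this library, as were 6 of 10 female-biased ones. The labels do not give the sex of the mice, and its part in these values or in those of C4a was not tested. Hnf4a, a regulator of hepatocyte genes, was at 484, 521 and 412 CPM in GSK3326595 libraries, against 541, 525 and 498 CPM in vehicle libraries. The part of these genes in the complement values was not tested.

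C1q, the recognition molecule of the classical arm, is made of 3 chains whose genes lie side by side on chromosome 4 (mm10), on the minus strand: C1qb at 136880129 to 136886187, C1qc at 136889804 to 136893065 and C1qa at 136895917 to 136898803. The gaps between them are 3.6 and 2.9 kb. C1qa had 187, 87.8 and 73.5 CPM in GSK3326595 libraries, against 71.2, 91.4 and 79.9 CPM in vehicle libraries. C1qb had 273, 95.4 and 89.9 CPM in GSK3326595 libraries, against 69.7, 105 and 79.9 CPM in vehicle libraries. C1qc had 222, 90.8 and 92.7 CPM in GSK3326595 libraries, against 72.4, 101 and 87.1 CPM in vehicle libraries. For all 3 chains GSK3326595 replicate 1 was over 2 times the next library, where 2.19% of all genes were, and the other 5 libraries overlapped.

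Log2 differences were 0.52 ± 0.36 for C1qa, 0.85 ± 0.46 for C1qb and 0.64 ± 0.38 for C1qc, with adjusted p-values of 0.702, 0.625 and 0.65 in edgeR. Summed, the chains had 682, 274 and 256 CPM in GSK3326595 libraries, against 213, 298 and 247 CPM in vehicle libraries, with a log2 difference of 0.68 ± 0.41 and an adjusted p of 0.654. Of the 14 macrophage markers 9 were highest in GSK3326595 replicate 1, as the C1q chains were, while 4 were lowest in it and 5 were highest in vehicle replicate 3. Csf1r, the receptor for the growth factor CSF-1, had 122, 63.7 and 52.1 CPM in GSK3326595 libraries, against 44.6, 64.6 and 54.5 CPM in vehicle libraries. Summed C1q relative to Csf1r was 5.57, 4.3 and 4.92 in GSK3326595 libraries, against 4.79, 4.6 and 4.53 in vehicle libraries (means 4.93 ± 0.636 and 4.64 ± 0.133, SD, n = 3 each). The groups overlapped in this ratio, and GSK3326595 replicate 1 was no longer over 2 times the next library.

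The C1qb window, chr4:136886151-136886450 on the minus strand of GRCm38.p6, holds GAGGAA with its first base at -30. GAGGAA is the core bound by PU.1, a transcription factor of macrophages and other myeloid cells, and was searched on both strands (TTCCTC on the other). It was in the windows of 6 of the 24 members, Fcna, Cd59a, C1qb, C1qc, C1ra and Cfp, or 25%, where 28.3% of 32851 windows held it. The C1qb window is shown for the C1q genes, with the match in capitals.
C1qb: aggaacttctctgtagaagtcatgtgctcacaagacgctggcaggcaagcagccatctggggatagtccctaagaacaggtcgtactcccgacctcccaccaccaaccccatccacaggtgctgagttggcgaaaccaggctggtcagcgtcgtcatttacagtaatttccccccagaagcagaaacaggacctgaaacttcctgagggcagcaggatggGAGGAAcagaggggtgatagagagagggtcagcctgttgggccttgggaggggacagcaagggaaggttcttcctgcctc
The share among members was near that of all windows.

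Fcna encodes ficolin-A, a lectin of the lectin arm that macrophages of the mouse make, and it was the macrophage-made member with a log2 difference below 0. It had 57.3, 21.5 and 20 CPM in GSK3326595 libraries, against 44.1, 56.2 and 45.8 CPM in vehicle libraries. GSK3326595 replicates 2 and 3 lay below all vehicle libraries, and GSK3326595 replicate 1 lay above them. The log2 difference was -0.56 ± 0.43 with an adjusted p of 0.727 in edgeR. Without GSK3326595 replicate 1 it was -1.23, with an unadjusted p of 0.000861 and an adjusted p of 0.452.

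Relative to Csf1r, Fcna was lower in all 3 GSK3326595 libraries. The ratio was 0.468, 0.337 and 0.385 there, against 0.989, 0.869 and 0.84 in vehicle libraries (means 0.397 ± 0.0663 and 0.9 ± 0.079, SD, n = 3 each). Of the 7 macrophage-made members, Fcna was the 1 whose ratio was lower without overlap, where 13% of all genes were. That 1 of 7 is near the share of all genes. Without overlap 0 were higher, where 2.96% were. Among the other macrophage markers, Mrc1 and Slc40a1 were also lower relative to Csf1r without overlap, Spic was higher, and the rest overlapped. The ratio of Fcna to Csf1r too was chosen after the values had been seen, and a ratio does not show which of its genes differed.

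**Figure D4:**
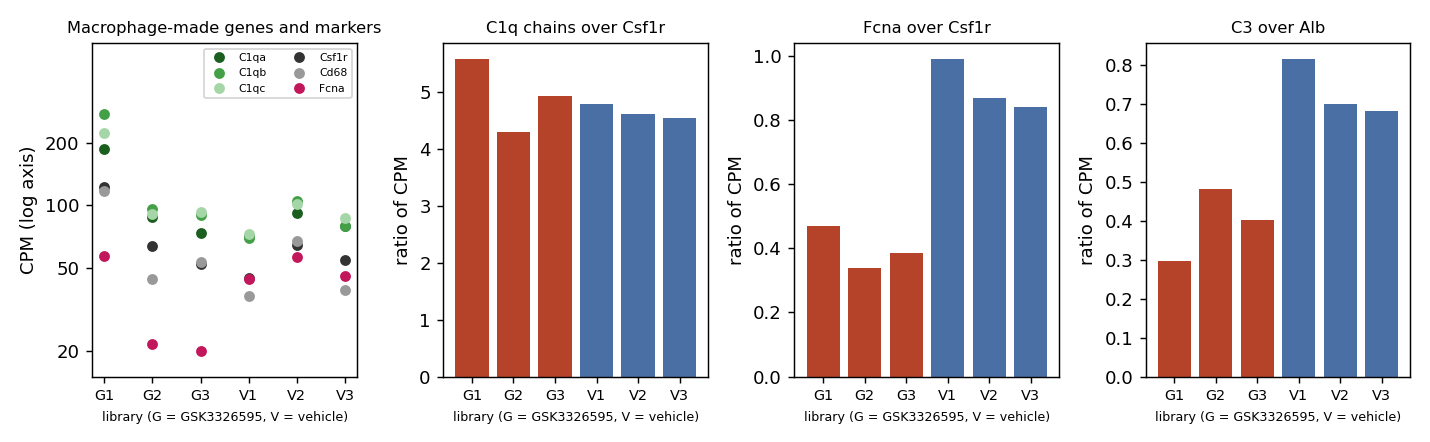
Left, CPM (log axis) of the C1q chains, Fcna and the macrophage markers Csf1r and Cd68 in each library; right, bars of the ratio of summed C1q to Csf1r, of Fcna to Csf1r and of C3 to Alb in each library (red GSK3326595, blue vehicle). C1q over Csf1r lies between 4.3 and 5.57 in all 6 libraries, while Fcna over Csf1r is at most 0.468 in GSK3326595 libraries and at least 0.84 in vehicle libraries.

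Cfp encodes properdin, which steadies the alternative convertase. It had 93.9, 38.2 and 38.5 CPM in GSK3326595 libraries, against 33, 48.6 and 46.8 CPM in vehicle libraries, with a log2 difference of 0.41 ± 0.39. The receptors C3ar1 and C5ar1, for the fragments C3a and C5a, were low and variable. C3ar1 had 28.2, 6.42 and 6.49 CPM in GSK3326595 libraries, against 5.99, 16 and 3.91 CPM in vehicle libraries. C5ar1 had 10.3, 2.91 and 3.21 CPM in GSK3326595 libraries, against 2.2, 8.74 and 1.22 CPM in vehicle libraries. Both receptors were highest in GSK3326595 replicate 1 and next highest in vehicle replicate 2, and the groups overlapped. Log2 differences were 0.67 ± 0.77 for C3ar1 and 0.44 ± 0.84 for C5ar1, with adjusted p-values of 0.84 and 0.925 in edgeR. Without GSK3326595 replicate 1 they were -0.42 and -0.40.

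Other myeloid markers also varied between the libraries. Markers of Kupffer cells, the resident macrophages of the liver, went in both directions. Cd5l, Timd4 and Spic were highest in GSK3326595 replicate 1, at 611, 36.2 and 28 CPM, as was the general macrophage marker Cd68 at 117 CPM. Clec4f, Vsig4, Marco and Folr2 were lowest in it, at 0.129, 0.129, 0.645 and 0.516 CPM. Those 4 were highest in vehicle replicate 3, at 24.3, 11, 14 and 2.63 CPM. The neutrophil markers summed to 7.22, 9.15 and 2.67 CPM in GSK3326595 libraries, against 7.3, 218 and 2.51 CPM in vehicle libraries, so the sum was highest in vehicle replicate 2, in which the receptors were second highest. The part of these cells in the values of the macrophage-made members was not tested.

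Compared per kilobase of exon, the members spanned a wide range of levels. C3 stood first, with 658 ± 426 CPM per kb in GSK3326595 libraries and 1251 ± 518 in vehicle libraries (SD, n = 3 each). Vtn followed with 426 ± 160 in GSK3326595 libraries and 331 ± 13.5 in vehicle libraries. C4b, Cfb and C1qb came next at 131 ± 101, 119 ± 52.7 and 140 ± 95.7 CPM per kb in GSK3326595 libraries, against 183 ± 123, 137 ± 32.2 and 78.2 ± 16.9 in vehicle libraries. Those 3 did not differ from one another beyond their spread in the GSK3326595 libraries. The genes of lowest vehicle level were C7 at 0.583 ± 0.325 in GSK3326595 libraries and 0.412 ± 0.362 in vehicle libraries, and C4bp at 14.6 ± 22.4 in GSK3326595 libraries and 0.877 ± 0.818 in vehicle libraries. The members with large fitted differences, C9, C4bp and Mbl1, were thus among the least abundant in vehicle libraries.

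**Figure D5:**
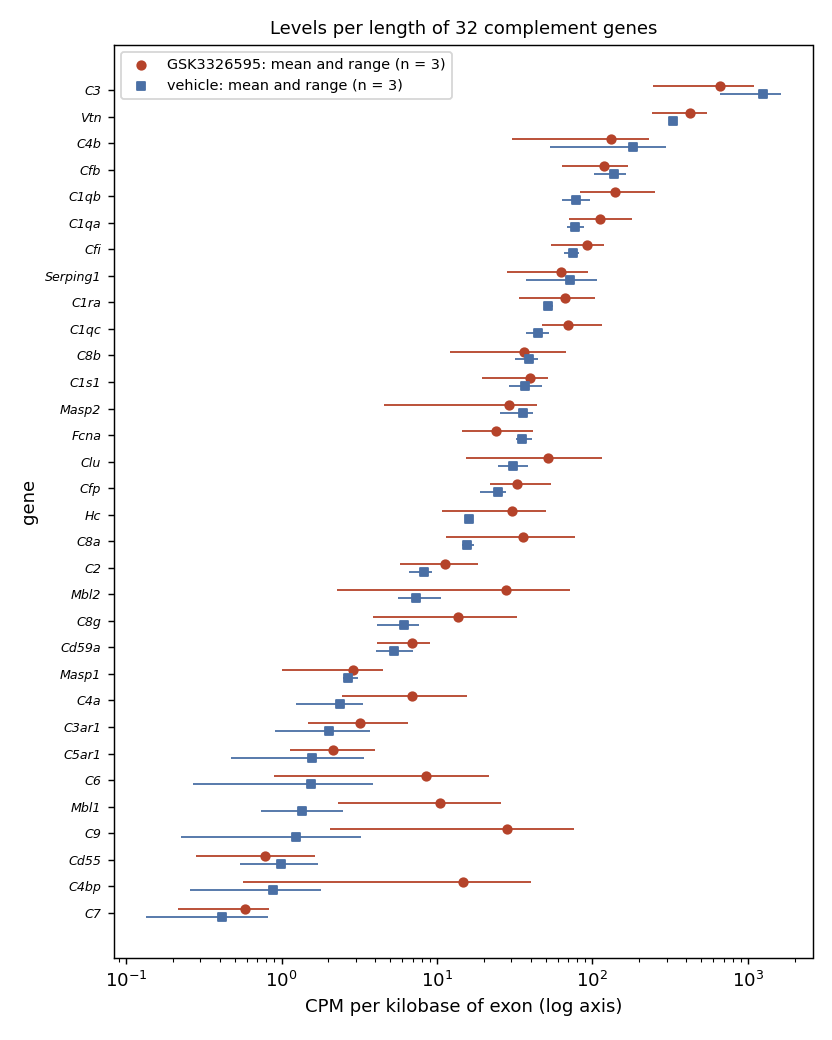
Level per kilobase of exon (CPM per kb, log axis) of 32 complement genes, mean as a point and the range of 3 libraries as a line, GSK3326595 above vehicle for each gene. C3 is highest, at 658 in GSK3326595 and 1251 CPM per kb in vehicle libraries, and C7 is lowest in vehicle libraries, at 0.412 CPM per kb.

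Of 29 further complement genes outside the 33, 27 passed the filter. Log2 differences were above 0 for 21 and below 0 for 6, where 53.1% of all genes were above 0, with a median of 0.35. At an adjusted p under 0.05, edgeR called 0 of them, where it called 0% of all genes, and DESeq2 called 1, where it called 1.69%. At an unadjusted p under 0.05 in edgeR, 4 had higher values in GSK3326595 libraries, where 5.45% of all genes did, and 0 had lower values, where 3.81% did. The 1 that DESeq2 called was Itgax, the alpha chain of complement receptor CR4 and a marker of dendritic cells, with an adjusted p of 0.000964. It had 12.8, 14.3 and 8.01 CPM in GSK3326595 libraries, against 2.87, 4.25 and 4.36 CPM in vehicle libraries, and these groups did not overlap. In edgeR its log2 difference was 1.61 ± 0.32, with an unadjusted p of 0.00178 and an adjusted p of 0.455. Itgax is itself on the list of 8 dendritic cell markers. All 7 of them that passed the filter had log2 differences above 0, with a median of 2.04. The 8 summed to 27.6, 34.9 and 16.2 CPM in GSK3326595 libraries, against 7.55, 9.63 and 11.8 CPM in vehicle libraries. Itgax is counted in that median and in those sums, so they are not a separate reading of such cells. The part of such cells in Itgax was not tested.

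Itgb2, the beta chain shared by the complement receptors CR3 and CR4, had 77.7, 40.1 and 34.1 CPM in GSK3326595 libraries, against 17.4, 35.3 and 22.7 CPM in vehicle libraries. Cd93, which was first described as a C1q receptor, had 102, 44.6 and 38.3 CPM in GSK3326595 libraries, against 18.1, 38.7 and 24.3 CPM in vehicle libraries. Both were highest in GSK3326595 replicate 1, as the macrophage-made members were, with overlap only from vehicle replicate 2. Log2 differences were 1.01 ± 0.40 for Itgb2 and 1.19 ± 0.46 for Cd93, with adjusted p-values of 0.526 and 0.524 in edgeR. Susd4, a membrane inhibitor of complement, had 0.0645, 8.06 and 0.722 CPM in GSK3326595 libraries, against 0.0319, 0.102 and 0.358 CPM in vehicle libraries, and so stood high in GSK3326595 replicate 2.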

How the data were processed

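Per the labels' protocols, RNA of 6 mouse liver tumors was made into stranded libraries and sequenced. The submitters' processing notes name cutadapt, STAR, Picard, RSEM and the mm10 build, without roles or versions. The table the authors deposited holds expected counts per gene, not scaled to library size; 12.3% of values are not whole, and they were rounded to whole numbers here. Depth per library stands in the report.

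Gene IDs were matched to GENCODE M21 (mm10) for 47224 of 47643 genes. Genes were filtered with filterByExpr (minimum count 10), which kept 17012, scaled by TMM and tested with edgeR 4.0.16 (glmQLFit, glmQLFTest, R 4.3.3), 3 GSK3326595 against 3 vehicle libraries, 2-sided, with Benjamini-Hochberg adjustment over all genes kept and a threshold of 0.05. Standard errors and 95% intervals come from that test. DESeq2 1.42.0 and limma-voom 3.58.1, other scalings and filters, the replicate number as a block and each library left out were alternatives. Steps were tested on simulated data. C4a and C4b were also added together.

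The members, their division by source, and the marker and gene lists were chosen with earlier results of these data known. Values per library are given for C3, Hc, C4a, C4b, Cfd, the macrophage-made members and the 8 other members of smallest p, and for the 4 other complement genes of smallest p. A further gene of that rule is not reported here. Values for Alb, Tat, Mup3, Cfb, C7, C8b and Masp2, and the ratios, were chosen after values were seen. Promoter windows are from RefSeq GRCm38.p6. The 9 members without a window are C1qa, C2, C4a, C4b, Cfb, Cfi, Masp1, Serping1 and Clu.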

Additional observations from a re-analysis of the deposited data

How the results depend on the processing

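No member was called in any of the settings tried, and edgeR and limma-voom called 0 genes in all, while DESeq2 called 286. The count of members at an unadjusted p under 0.05, 3 in edgeR, was 0 in limma-voom, 2 with the replicate number as a block (C3 and C4b, both lower) and between 0 and 9 when 1 library was left out: 0 without vehicle replicate 1 or without vehicle replicate 2, 5 without GSK3326595 replicate 1, 9 without GSK3326595 replicate 3. The median of the hepatocyte-made members ranged from -0.08 to 0.80 and that of the macrophage-made members from -0.16 to 0.78 over the left-out libraries. Of 485 single-gene values under the alternatives, 459 kept their direction and 26, in 18 of 32 members, did not. With the replicate block and in limma-voom Masp1 was at -0.13, and C4a added to C4b was at -0.42. Over the left-out libraries, the log2 differences that changed sign ranged as follows: C1qa -0.0049 to 0.78, C1ra -0.08 to 0.69, C1s1 -0.11 to 0.44, C2 -0.07 to 0.80, C4b -1.16 to 0.05, C8b -0.89 to 0.32, C8g -0.60 to 1.61, Cfb -0.50 to 0.11, Cfp -0.16 to 0.67, Masp1 -0.36 to 0.51, Masp2 -0.70 to 0.23, Mbl2 -0.29 to 2.44, Cd55 -1.47 to 0.36, Serping1 -0.56 to 0.19, Clu -0.63 to 1.18, C3ar1 -0.42 to 1.47 and C5ar1 -0.40 to 1.68. The cause was not tested. The deviations of same-numbered libraries correlated at -0.0728, 0.0718 and 0.323. GSK3326595 replicate 1 correlated best with vehicle replicate 2, at 0.324, and GSK3326595 replicates 2 and 3 each with their own number. The labels do not say that a number pairs libraries. So few values cannot show whether it does. The median of all genes was 0.12 with no scaling beyond total counts, against 0.03 with TMM. Depth limits what can be said of Cfd, at 0 or 1 count a library.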

Other observations

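Acute phase genes outside the 33 members, mostly plasma protein genes that hepatocytes switch on in inflammation, had no direction that every fit shared. Crp is on this list and also among the 29 further complement genes. Of 19 that passed the filter, 14 had a log2 difference below 0 and 5 above, with a median of -0.28, where 53.1% of all genes were above 0. The median was 0.09, with 12 of 20 above 0, without GSK3326595 replicate 3, and 0.04, with 11 of 19 above 0, without vehicle replicate 2. It stayed below 0 without GSK3326595 replicate 1 or 2, at -0.65 and -0.94, and without vehicle replicate 1 or 3, at -0.38 and -0.72. At an adjusted p under 0.05 edgeR called 0 of these genes, where it called 0% of all genes. DESeq2 also called 0, where it called 1.69% of all genes, and it gave 2 of the 19 no adjusted p. At an unadjusted p under 0.05 in edgeR, 1 had higher values in GSK3326595 libraries, where 5.45% of all genes did. In the same test 0 had lower values, where 3.81% of all genes did. Saa1, a serum amyloid A gene, had 0.451, 80.5 and 1.84 CPM in GSK3326595 libraries, against 1.66, 1.33 and 1.22 CPM in vehicle libraries, and so shared the high value of C9 and C4bp in GSK3326595 replicate 2. Lcn2, for lipocalin-2, had 43.3, 11.9 and 3.39 CPM in GSK3326595 libraries, against 125, 268 and 8.03 CPM in vehicle libraries, with overlapping groups and replicate 3 lowest in each, as for C3. Fga, a fibrinogen chain gene, had 3703, 1540 and 1192 CPM in GSK3326595 libraries, against 5011, 5870 and 1497 CPM in vehicle libraries. These genes were named after their values were seen.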
